A study of Mus musculus with 12 samples.

Results

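The 38 genes described here encode the insulin and IGF receptor pathway from the cell surface to mTOR: receptors and their adaptors, PI3K subunits, AKT and the phosphatases that oppose it, FOXO factors, the TSC and Rag proteins, the subunits of the mTOR complexes, and the direct outputs of mTORC1. They were taken by gene name from a list written with earlier results of these data known, out of 52550 genes in the files, and all 38 passed the filter on low counts that left 16823 genes. They were followed in D2A1 and D2.OR, 2 mouse mammary tumor cell lines derived from separately formed D2 hyperplastic alveolar nodule tumors. Each line was cultured for 7 days in 2D on plastic or in 3D on a layer of growth-factor-reduced Matrigel, the Matrigel on Top (MoT) assay, in which D2.OR cells serve as the model of dormancy and D2A1 cells as its proliferative counterpart. The medium of the MoT assay held insulin, hydrocortisone, cholera toxin and a low amount of horse serum. For 2D culture the methods describe both this medium and standard medium with fetal bovine serum, and which of them the sequenced 2D cells had cannot be read from them with certainty, so that the supply of insulin may have differed between 2D and 3D. RNA of 3 replicates a group was sequenced, 12 libraries in all, and the replicate number is also the batch, each batch having its own sequencing lane.

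Insulin and IGF1 bind the receptors Insr and Igf1r, which phosphorylate the adaptors Irs1 and Irs2. These recruit PI3K, whose lipid product brings AKT to the membrane, where Pdpk1 (PDK1) and mTORC2 activate it. AKT keeps the FOXO factors out of the nucleus and inhibits the TSC complex, which otherwise holds back the GTPase Rheb, the direct activator of mTORC1. The Rag GTPases bring mTORC1 to the lysosome when amino acids are present. mTORC1 (Mtor, Rptor, Mlst8) then raises translation through the S6 kinases and the Eif4e-binding proteins and restrains autophagy through Ulk1, whereas mTORC2 holds Rictor in place of Rptor. Much of this pathway is controlled by phosphorylation and by location in the cell. The values below are RNA levels and do not measure its activity.

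The libraries held between 47589611 and 73325069 counts, with a median of 61747126. Levels are given as TPM (a share of all transcripts, with gene length taken into account), and differences as log2 fold changes with their standard error (SE) from one edgeR quasi-likelihood model of all 12 libraries with a term for the batch. Adjusted p-values are by the Benjamini-Hochberg method over all genes tested, and a gene is called when its adjusted p is under 0.05. Of 7 mammary epithelial markers, 5 were under 1 TPM in every D2A1 library in 2D and 5 in 3D, and 2 (Krt19 and Krt5) in every D2.OR library. Their summed level was 205 to 297 TPM in D2A1 2D and 94.0 to 221 TPM in D2A1 3D, most of it Krt18, against 1160 to 1720 TPM in D2.OR 2D and 422 to 877 TPM in D2.OR 3D. Epcam and Cdh1 were under 1 TPM in all D2A1 libraries. The summed level of 6 fibroblast and mesenchymal markers, most of it Vim, was also higher in D2.OR in 2D, at 3350 to 5420 TPM against 789 to 2560 TPM in D2A1, and was 2950 to 5650 TPM against 1090 to 3170 TPM in 3D. The part of these markers in the differences between the lines was not tested. All 3 endothelial markers and 3 of 4 immune markers stayed under 1 TPM in all groups. Since these are bulk samples, fewer cells of a type and less RNA per cell cannot be told apart.

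Mtor, the kinase at the center of both complexes, was expressed at the highest level in D2A1 cells in 2D. There it was at 74.3, 104 and 111 TPM in replicates 1, 2 and 3. In D2A1 cells in 3D the levels were 45.8, 41.2 and 37.0 TPM, in D2.OR cells in 2D 30.1, 29.2 and 31.8 TPM, and in D2.OR cells in 3D 24.5, 25.8 and 28.6 TPM. In TPM the ranges of the 4 groups did not overlap. In CPM (counts scaled for depth, without gene length), D2A1 3D at 108.1 to 141.8 and D2.OR 2D at 103.1 to 118.3 overlapped. The D2A1 2D libraries stood well above the other 9 on both scales. Among the 38 genes ordered by level, Mtor ranked between 9 and 12 in D2A1 2D, between 13 and 14 in D2A1 3D, and between 17 and 24 in D2.OR.

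Mtor was 2.75-fold lower in D2.OR than in D2A1 in 2D, with a log2 fold change of -1.46 (SE 0.17, edgeR adjusted p = 0.000156). In 3D the difference between the lines was smaller, at -0.45 (SE 0.17, edgeR adjusted p = 0.0492). This value lies at the threshold, the batches gave -0.77, -0.46 and -0.07, and the call was lost in 16 of 24 alternatives, 11 of them among the 15 fits with a batch or library left out (highest adjusted p = 0.216). Between 2D and 3D, Mtor fell by 1.27 on the log2 scale in D2A1 (SE 0.17, edgeR adjusted p = 0.0193), with batch values of -0.72, -1.37 and -1.69. This call was lost in 7 of 24 alternatives, with only the groups compared (adjusted p = 0.127), without batch 2 or batch 3, and without replicate 2 or 3 of either D2A1 group (highest adjusted p = 0.526). In D2.OR the change was -0.26 (SE 0.17, edgeR adjusted p = 0.463). The difference between the 2 changes, which the interaction term tests, was 1.01 (SE 0.24) with an unadjusted p of 0.00222 and did not pass after adjustment (edgeR adjusted p = 0.121). Batch 1 differed from the others here, with a difference of 0.21 against 1.25 and 1.57 in batches 2 and 3. Without batch 1 the edgeR fit gave 1.41 (adjusted p = 0.00383), and the likelihood-ratio test of DESeq2 on all libraries gave 1.03 (adjusted p = 0.00971).

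**Figure D1:**
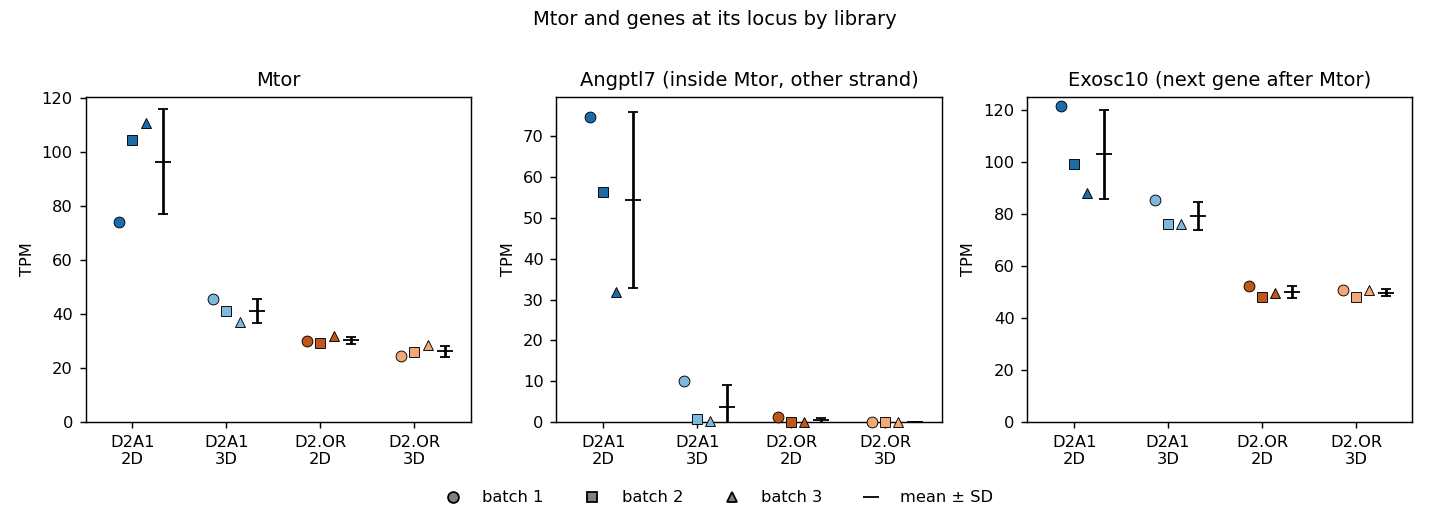
Levels (TPM, linear axes from 0) of Mtor, of Angptl7 inside it and of Exosc10, the next gene after it, in the 12 libraries by group. Marker shapes give the batch, and the bar the mean ± SD of 3 replicates; Mtor is at 74.3 to 111 TPM in D2A1 2D and at 24.5 to 45.8 TPM in the other groups, and the other 2 genes are also highest in D2A1 2D.

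Mtor lies on chromosome 4 (chr4:148448611-148557683, plus strand, GRCm38), and other genes at this place showed a pattern of the same kind. Angptl7, which encodes a secreted angiopoietin-like protein, lies within Mtor on the opposite strand (chr4:148495183-148500460). Its exons share 0 bases with those of Mtor, and the strand setting of the counting is not given in the sources used here. Angptl7 was at 74.6, 56.4 and 31.8 TPM in D2A1 2D and at 9.96, 0.72 and 0.26 TPM in D2A1 3D, and did not exceed 1.22 TPM in D2.OR. Within D2A1 2D the library with the most Angptl7 had the least Mtor, whereas within D2A1 3D the 3 libraries stood in the same order for both genes. Exosc10, the next protein-coding gene after Mtor, encodes a catalytic subunit of the nuclear RNA exosome. It differed between the lines by -0.93 in 2D (edgeR adjusted p = 0.000119) and by -0.72 in 3D (edgeR adjusted p = 0.000433) on the log2 scale (SE 0.10 for both), and between 2D and 3D in D2A1 it changed by -0.27 (edgeR adjusted p = 0.116).

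The annotation (GENCODE M21, same build) gives Mtor a protein-coding transcript of 58 exons and 8564 bases and a short one of 1003 bases, beside 2 retained-intron transcripts of 2229 and 598 bases. RSEM's effective length of the gene, which moves with the mix of transcripts to which reads are given, was between 5374 and 5585 bases in D2A1 2D. It was between 4563 and 5226 bases in D2A1 3D and between 5540 and 6129 bases in D2.OR. D2A1 3D thus had the shortest values, and a shorter length gives a higher TPM for the same counts. The part of this mix in the differences of the gene, and in the gap between D2A1 3D and D2.OR 2D in TPM, was not tested.

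The RefSeq promoter windows, 250 bases before to 50 bases after a start, were searched for the motif of the FOXO factors (TGTTTAC and TGTTTGC) and for the core of the CLEAR motif (CACGTG), which the TFE factors restrained by mTORC1 bind. Both strands were read. Windows were found for 33 of the 38 genes, 49 in all. The FOXO motif was in 1 of the 49 windows (2.04%, that of Akt1) and in 8.48% of the 32851 windows of all genes. The CLEAR core was in 6 windows (12.2%, against 7.15% of all windows), those of Eif4e, Irs1, Irs2, Rheb, Rragc and Sgk1. The median GC content was 60% in the 49 windows and 52.7% in all windows, and its part in these shares was not tested. Shown are the windows of Mtor, of Irs1, the member with the largest rise in D2.OR in both cultures, and of its relative Irs2, which differed less, as RefSeq gives them for GRCm38.p6, 5′ to 3′ on the strand of the gene, with matches in capitals. The Mtor window (chr4:148448332-148448631, plus strand) holds neither motif, and those of Irs1 (chr1:82291390-82291689, minus strand) and Irs2 (chr8:11008880-11009179, minus strand) hold the CLEAR core once each, 115 and 44 bases before the start.
Mtor: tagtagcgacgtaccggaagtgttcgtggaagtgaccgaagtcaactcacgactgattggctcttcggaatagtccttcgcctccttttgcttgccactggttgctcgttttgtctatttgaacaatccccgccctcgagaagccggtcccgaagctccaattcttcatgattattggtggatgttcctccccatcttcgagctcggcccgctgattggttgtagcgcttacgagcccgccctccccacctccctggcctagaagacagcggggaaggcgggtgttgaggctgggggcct
Irs1: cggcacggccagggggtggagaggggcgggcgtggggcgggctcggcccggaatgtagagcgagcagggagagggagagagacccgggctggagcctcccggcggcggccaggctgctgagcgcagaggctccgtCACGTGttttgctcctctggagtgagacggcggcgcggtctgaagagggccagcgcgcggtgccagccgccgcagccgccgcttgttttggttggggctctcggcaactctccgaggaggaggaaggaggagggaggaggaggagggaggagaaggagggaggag
Irs2: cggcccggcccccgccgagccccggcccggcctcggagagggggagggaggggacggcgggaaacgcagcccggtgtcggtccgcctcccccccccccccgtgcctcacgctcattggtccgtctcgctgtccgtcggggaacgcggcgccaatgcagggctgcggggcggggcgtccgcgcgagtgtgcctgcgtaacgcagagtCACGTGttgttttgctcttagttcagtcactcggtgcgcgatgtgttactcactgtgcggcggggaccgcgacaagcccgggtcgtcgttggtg

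Between the lines in 2D, 19 of the 38 genes were called, 5 higher and 14 lower in D2.OR, where 49.8% of all genes tested were called (25.4% higher and 24.4% lower). The median log2 fold change of the 38 was -0.08, and that of all genes was -0.0034. In 3D, 18 were called, 9 higher and 9 lower, beside 53.8% of all genes (27.7% higher and 26.1% lower), with a median of 0.11. As a group, therefore, the 38 genes were called at about the rate of the transcriptome, and the description turns on which members differed.

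**Figure D2:**
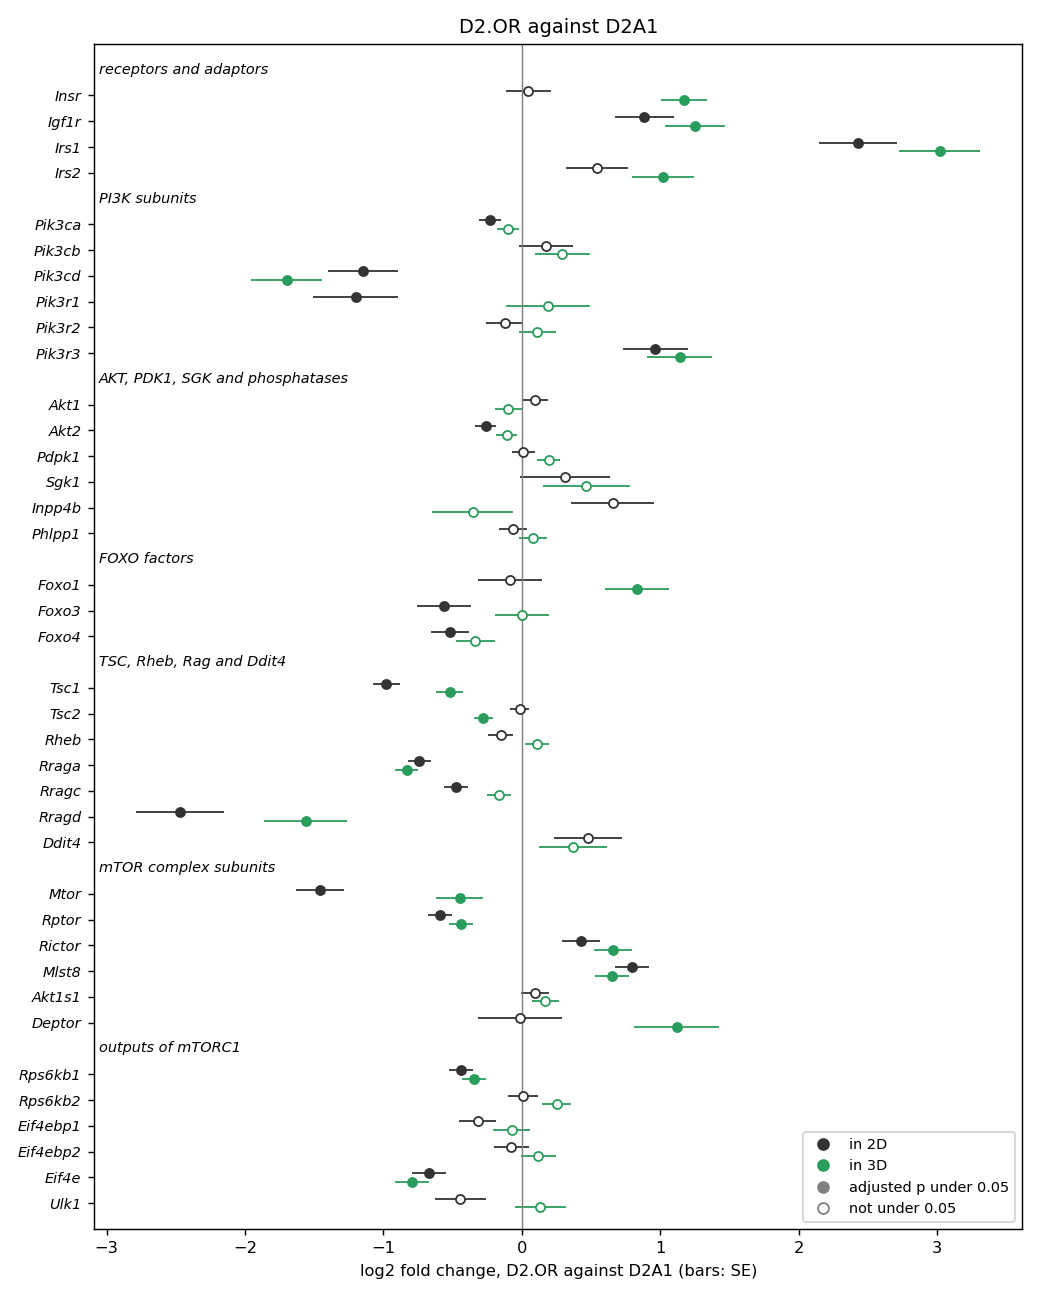
Log2 fold change of D2.OR against D2A1 for each of the 38 genes in 2D (black) and 3D (green), with bars of 1 SE and filled points for an edgeR adjusted p under 0.05. The receptors and adaptors lie to the right, with Irs1 at 2.43 and 3.02, and Mtor, Rptor, Tsc1, Rraga, Rragd, Eif4e and Pik3cd lie to the left in both cultures.

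The receptors and adaptors were the group that was highest in D2.OR. Of the 4, 2 were called in 2D and all 4 in 3D, each of them higher, beside 49.8% (25.4% higher) and 53.8% (27.7% higher) of all genes. Irs1 showed the largest difference. In D2A1 it was at 7.95, 4.77 and 4.84 TPM in 2D and at 5.20, 2.05 and 2.48 TPM in 3D. The D2.OR levels were 24.6, 29.2 and 29.4 TPM in 2D and 24.1, 27.5 and 23.6 TPM in 3D. All D2.OR libraries lay above all D2A1 libraries, and the log2 fold change was 2.43 in 2D (SE 0.28, edgeR adjusted p = 0.000149) and 3.02 in 3D (SE 0.29, edgeR adjusted p = 4.6e-05). Gm9747, annotated as protein-coding on the opposite strand at the same place, was at 5.39 to 10.3 TPM in D2.OR and at most at 1.0 TPM in D2A1. How reads of the pair were divided was not tested.

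Irs2, which is the more abundant adaptor in D2A1, differed less. It was at 30.4, 19.7 and 25.7 TPM in D2A1 2D and at 25.9, 15.1 and 21.2 TPM in D2A1 3D, against 45.8, 29.1 and 27.6 TPM in D2.OR 2D and 75.6, 37.1 and 24.6 TPM in D2.OR 3D. The ranges of the lines overlapped in TPM in both cultures. The log2 fold change was 0.54 in 2D (SE 0.22, edgeR adjusted p = 0.0726) and 1.02 in 3D (SE 0.23, edgeR adjusted p = 0.00453), with a batch value of 0.20 in batch 3. The call in 3D was lost without batch 2 (adjusted p = 0.0879). The 2 adaptors thus stood in another ratio in each line, with Irs1 at 0.117 to 0.261 of the Irs2 level in D2A1 and at 0.319 to 1.07 of it in D2.OR.

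Igf1r, the receptor for IGF1, was at 9.96, 7.48 and 9.72 TPM in D2A1 2D and at 7.05, 5.61 and 6.24 TPM in D2A1 3D. The D2.OR cells had 10.2, 17.2 and 19.0 TPM in 2D and 13.5, 19.2 and 12.9 TPM in 3D. It was higher in every D2.OR library than in any D2A1 library, narrowly so in batch 1 in 2D, with log2 fold changes of 0.88 (SE 0.21, edgeR adjusted p = 0.00799) and 1.25 (SE 0.22, edgeR adjusted p = 0.0012). In 2D the call did not hold without batch 2 (0.72, adjusted p = 0.107) or without batch 3 (0.76, adjusted p = 0.0839).

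For Insr, the insulin receptor, the level in D2A1 depended on the culture. It was at 19.5, 24.3 and 22.3 TPM in D2A1 2D and at 12.3, 11.9 and 10.9 TPM in D2A1 3D. Its D2.OR levels were 28.1, 23.6 and 22.2 TPM in 2D and 37.4, 30.0 and 22.98 TPM in 3D. The lines overlapped in 2D (log2 fold change 0.05, SE 0.16, edgeR adjusted p = 0.827) and were apart in 3D (1.17, SE 0.17, edgeR adjusted p = 0.0004). Insr fell in D2A1 between 2D and 3D (-0.88, SE 0.17, edgeR adjusted p = 0.037), whereas the change in D2.OR was 0.24 (SE 0.16, edgeR adjusted p = 0.478). The call in D2A1 was lost without the replicate block (-0.87, adjusted p = 0.0636), with only the groups compared (-0.86, adjusted p = 0.0986) and in 10 of 15 fits with a batch or library left out, namely each without batch 2, batch 3 or a library of these batches (highest adjusted p = 0.538). It had the smallest unadjusted p of the 38 genes for the interaction, 0.000908, at a difference of 1.12 (SE 0.23) with 1.0, 1.26 and 1.03 in the batches, and this did not pass after adjustment (edgeR adjusted p = 0.101; DESeq2 adjusted p = 0.00356).

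**Figure D3:**
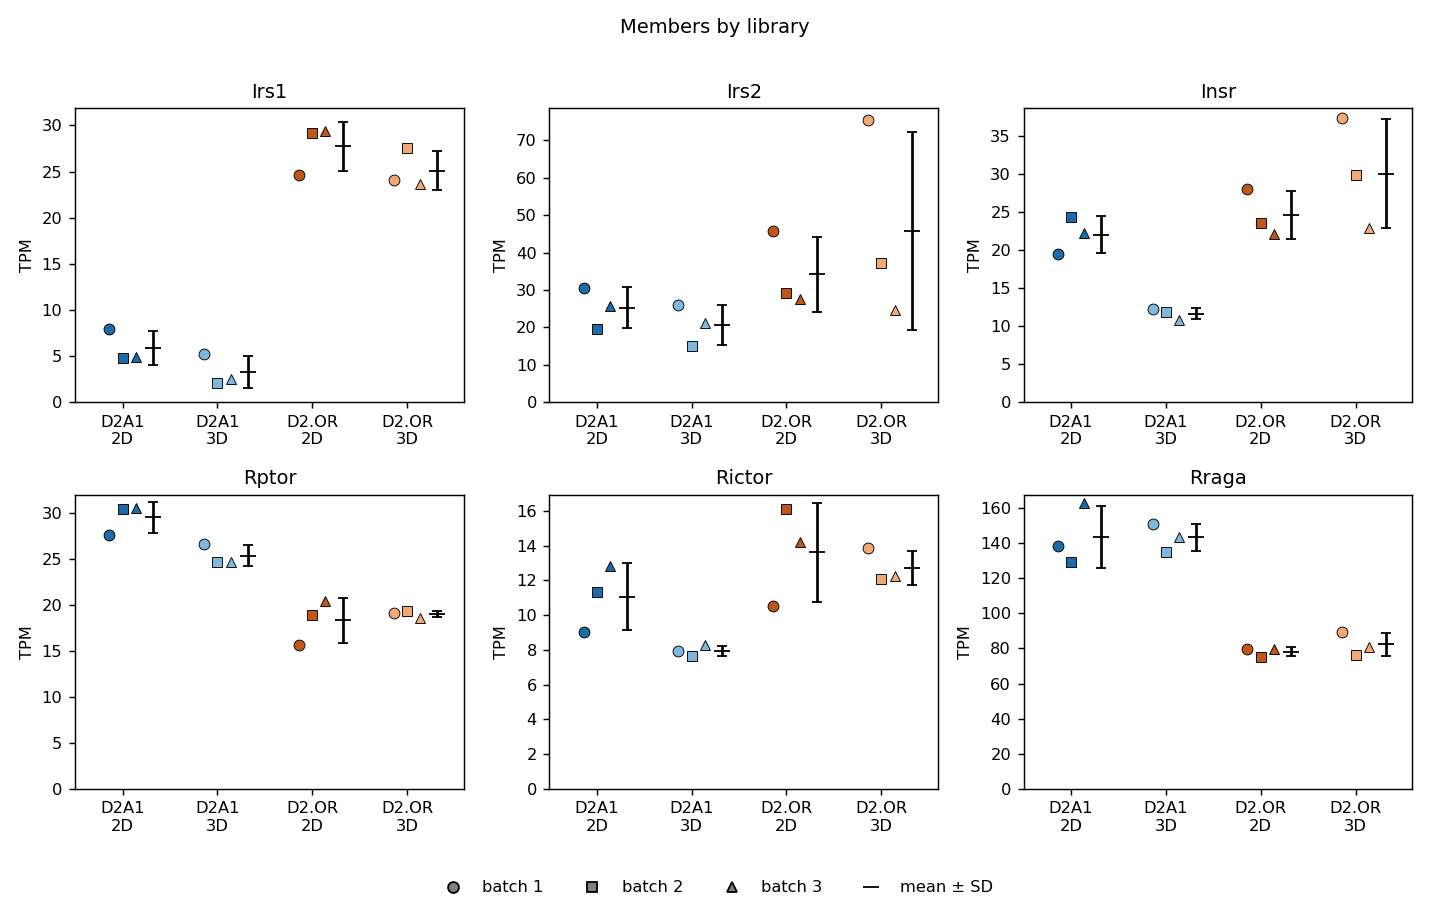
Levels (TPM, linear axes from 0) of Irs1, Irs2, Insr, Rptor, Rictor and Rraga in the 12 libraries by group, with marker shapes for the batch and a bar for the mean ± SD of 3 replicates. Irs1 lies at 2.05 to 7.95 TPM in D2A1 and at 23.6 to 29.4 TPM in D2.OR, Insr is lowest in D2A1 3D at 10.9 to 12.3 TPM, and Rraga lies at 129 to 163 TPM in D2A1 and at 75.1 to 89.7 TPM in D2.OR.

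The PI3K enzymes pair a catalytic subunit, such as Pik3ca (p110 alpha), with a regulatory one. Pik3ca was the main catalytic transcript, with 68.2% to 82.0% of the summed TPM of Pik3ca, Pik3cb and Pik3cd in every library. Pik3cd (p110 delta), the form best known from leukocytes, was low and higher in D2A1. It was at 5.28, 2.58 and 2.54 TPM in D2A1 2D and at 4.83, 5.12 and 4.87 TPM in D2A1 3D, and at 1.70, 1.65 and 1.69 TPM in D2.OR 2D and 1.52, 1.60 and 1.38 TPM in D2.OR 3D. The lines did not overlap, and the log2 fold change was -1.15 in 2D (SE 0.25, edgeR adjusted p = 0.00491) and -1.70 in 3D (SE 0.25, edgeR adjusted p = 0.000517). The value in 2D was -0.74 without D2A1 2D replicate 1 and remained called. Of the immune markers Cd68 exceeded 1 TPM, at 5.65 to 32.1 TPM in D2A1 and 2.22 to 6.75 TPM in D2.OR, whereas the leukocyte marker Ptprc and 2 others stayed under 1 TPM. The part of such cells in the Pik3cd level was not tested. Pik3ca was slightly lower in D2.OR in 2D (-0.23, SE 0.08, edgeR adjusted p = 0.0341), a call that was lost in 3 other settings and held in 5 of 15 fits with a batch or library left out, and Pik3cb was not called in either culture.

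Of the regulatory subunits, Pik3r2 (p85 beta) was the most abundant, with 59.6% to 78.5% of the summed TPM of Pik3r1, Pik3r2 and Pik3r3, and was not called between the lines. Pik3r3 (p55 gamma) was higher in D2.OR. It was at 40.1, 19.0 and 23.1 TPM in D2A1 2D and at 38.5, 18.2 and 17.9 TPM in D2A1 3D, against 45.9, 46.6 and 47.1 TPM in D2.OR 2D and 56.8, 45.9 and 52.2 TPM in D2.OR 3D. The groups did not overlap, but replicate 1 of D2A1 lay much nearer to D2.OR than the other 2. The log2 fold change was 0.97 in 2D (SE 0.24, edgeR adjusted p = 0.00825) and 1.14 in 3D (SE 0.24, edgeR adjusted p = 0.00326). The call in 2D did not hold without batch 2 (0.72, adjusted p = 0.134) or batch 3 (0.90, adjusted p = 0.0763), and that in 3D not without batch 3 (0.92, adjusted p = 0.0667).

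Pik3r1 (p85 alpha and its shorter forms) was at 44.1, 32.0 and 32.5 TPM in D2A1 2D and at 44.5, 9.27 and 9.27 TPM in D2A1 3D. The D2.OR libraries held 19.9, 13.6 and 12.4 TPM in 2D and 32.3, 16.7 and 14.6 TPM in 3D. It was lower in D2.OR in 2D (-1.20, SE 0.31, edgeR adjusted p = 0.0101), a call lost without batch 2 (-1.22, adjusted p = 0.0714), without batch 3 (-1.10, adjusted p = 0.0835) and without the replicate block (-1.16, adjusted p = 0.108). In 3D the lines overlapped. D2A1 3D replicate 1 stood apart from the other 2 libraries of its group, and the change between 2D and 3D in D2A1 was 0.05, -1.63 and -1.66 in the 3 batches.

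Of AKT and the kinases and phosphatases around it, 1 of 6 genes was called between the lines in 2D and 0 in 3D by edgeR, beside 49.8% and 53.8% of all genes. In 3D, 1 (Pdpk1) had an unadjusted p under 0.05, beside 59.9% of all genes. The median absolute log2 fold change of the 6 was 0.18 in 2D and 0.15 in 3D, against 0.54 and 0.61 for all genes. The largest values, not called, were those of Inpp4b in 2D (0.66, edgeR adjusted p = 0.0964) and Sgk1 in 3D (0.47, edgeR adjusted p = 0.238). Akt1 was between 174 and 240 TPM and Akt2 between 64.6 and 87.7 TPM over the 12 libraries, and Akt1 exceeded Akt2 in each by 2.33-fold to 3.62-fold. Akt2 was the gene called, at 87.7, 85.0 and 84.8 TPM in D2A1 2D and 66.9, 64.6 and 66.3 TPM in D2.OR 2D. The log2 fold change was -0.26 (SE 0.07, edgeR adjusted p = 0.0163), and in 3D it was -0.11 (edgeR adjusted p = 0.237). The call in 2D was lost without batch 2, without batch 3 and without D2.OR 2D replicate 2 (highest adjusted p = 0.163), as well as with no filter on low counts (adjusted p = 0.0876) and with only the groups compared (adjusted p = 0.116). Pdpk1, which phosphorylates AKT, stayed between 14.6 and 20.03 TPM. Sgk1, a kinase related to AKT that glucocorticoids and mTORC2 control, varied more between replicates than between groups, from 151 to 408 TPM within D2A1 2D alone. The AKT phosphatase Phlpp1 was at 6.93 to 9.36 TPM. Inpp4b, which removes a phosphate from a PI3K lipid product, was at 0.96 to 1.95 TPM in D2A1 2D and at 2.08 to 4.0 TPM in D2A1 3D, and this change of 1.13 (SE 0.30) did not pass (edgeR adjusted p = 0.0598).

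Of the FOXO factors, which AKT inactivates, 2 were called in 2D and 1 in 3D, and the difference between the cultures was called for none of the 3 (edgeR adjusted p of the interaction 0.207 for Foxo1, 0.318 for Foxo3 and 0.632 for Foxo4). Between the lines, 49.8% of all genes were called in 2D and 53.8% in 3D. In 2D, Foxo3 and Foxo4 were lower in D2.OR (-0.56, SE 0.19, edgeR adjusted p = 0.0374 and -0.52, SE 0.14, edgeR adjusted p = 0.0124). Foxo3 was at 53.5, 48.6 and 68.1 TPM in D2A1 2D and at 40.4, 31.1 and 32.3 TPM in D2.OR 2D, with no overlap. In 3D Foxo3 was at 0.00021 and Foxo4 at -0.34 on the log2 scale (edgeR adjusted p = 0.0665), and Foxo1 was higher in D2.OR (0.83, SE 0.23, edgeR adjusted p = 0.0138), at 31.1, 15.5 and 12.4 TPM against 15.3, 8.45 and 8.07 TPM in D2A1. Replicate 1 was the highest of its group in both lines there, so that the groups overlapped, while the batch values were 1.01, 0.83 and 0.60. With a batch or library left out, the call held in 5 of 15 fits for Foxo3, in 11 for Foxo4 and in 11 for Foxo1, and without the replicate block Foxo3 (-0.53, adjusted p = 0.131) and Foxo1 (0.86, adjusted p = 0.058) were not called. With only the groups compared, Foxo3 (adjusted p = 0.0641) and Foxo4 (adjusted p = 0.0583) were not called in 2D.

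Among the 7 genes between AKT and mTORC1 (Tsc1, Tsc2, Rheb, the 3 Rag genes and Ddit4), 4 were called in each culture, each of them lower in D2.OR. Of all genes, 49.8% were called in 2D (24.4% lower) and 53.8% in 3D (26.1% lower). Tsc1, the scaffold of the complex that inhibits Rheb, was at 17.4, 16.7 and 18.9 TPM in D2A1 2D and at 15.5, 11.5 and 11.9 TPM in D2A1 3D. In D2.OR it was at 8.82, 7.81 and 8.95 TPM in 2D and at 10.3, 8.5 and 9.29 TPM in 3D. Every D2.OR library lay below every D2A1 library, with log2 fold changes of -0.98 in 2D (SE 0.10, edgeR adjusted p = 5.51e-05) and -0.52 in 3D (SE 0.10, edgeR adjusted p = 0.0017). For the interaction, Tsc1 had the third smallest unadjusted p of the 38 genes, 0.00792, at 0.46 (SE 0.14, edgeR adjusted p = 0.161). The change in D2A1 between 2D and 3D was -0.42 (SE 0.10, edgeR adjusted p = 0.0505), and that in D2.OR was 0.04.

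Tsc2, the GTPase-activating partner of Tsc1, lay in a narrow range of 20.1 to 28.1 TPM. It did not differ by a call in 2D (-0.02, edgeR adjusted p = 0.867) and was lower in D2.OR in 3D (-0.28, SE 0.07, edgeR adjusted p = 0.00751), a call lost without batch 2 and without batch 3 (highest adjusted p = 0.11). Tsc2 overlaps Pkd1 on the opposite strand, and the Tsc2 count was not whole in any of the 12 libraries. Pkd1 was at 11.2 to 38.3 TPM and differed between the lines by -0.04 in 2D and 1.02 in 3D on the log2 scale. How reads of the pair were divided was not tested. The ratio of Tsc1 to Tsc2 was 0.641 to 0.732 in D2A1 2D, 0.462 to 0.552 in D2A1 3D and 0.349 to 0.440 in D2.OR.

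Rraga, a subunit of the Rag dimer that recruits mTORC1, was lower in D2.OR in both cultures. It was at 138, 129 and 163 TPM in D2A1 2D and at 151, 135 and 144 TPM in D2A1 3D, against 79.4, 75.1 and 79.6 TPM in D2.OR 2D and 89.7, 76.5 and 80.6 TPM in D2.OR 3D. The lines were far apart in both cultures, with log2 fold changes of -0.74 (SE 0.08, edgeR adjusted p = 0.000131) and -0.83 (SE 0.08, edgeR adjusted p = 6.05e-05). Its partner Rragc was at 83.9 to 96.0 TPM in D2A1 2D and at 50.6 to 69.1 TPM in D2.OR 2D (-0.48, SE 0.09, edgeR adjusted p = 0.00184), and was not called in 3D (-0.16, edgeR adjusted p = 0.139). The call of Rragc in 2D was lost without batch 2 (adjusted p = 0.0585) and without the replicate block (-0.47, adjusted p = 0.0518). Rragd, the other partner and a known target of the TFE factors, was barely expressed. It was at 1.38, 0.62 and 0.73 TPM in D2A1 2D and at 1.32, 0.66 and 0.49 TPM in D2A1 3D, and between 0.07 and 0.47 TPM in D2.OR. Replicate 1 was the highest in every group, and the log2 fold change was -2.47 in 2D (SE 0.32, edgeR adjusted p = 0.000248) and -1.56 in 3D (SE 0.30, edgeR adjusted p = 0.00211). The call in 3D was lost without the replicate block (-1.55, adjusted p = 0.0831). Rheb (112 to 162 TPM) and Ddit4, a stress-induced inhibitor of mTORC1 that glucocorticoids raise (184 to 510 TPM), were not called in any comparison.

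Of the 6 subunits of the mTOR complexes, 4 were called in 2D (2 higher and 2 lower in D2.OR) and 5 in 3D (3 higher and 2 lower), beside 49.8% and 53.8% of all genes. The subunits that tell the complexes apart went in opposite directions. Rptor (Raptor), the subunit of mTORC1, was at 27.6, 30.4 and 30.6 TPM in D2A1 2D and at 26.7, 24.7 and 24.7 TPM in D2A1 3D. In D2.OR it was at 15.7, 19.0 and 20.4 TPM in 2D and at 19.1, 19.3 and 18.7 TPM in 3D. The lines did not overlap, and the log2 fold change was -0.59 in 2D (SE 0.09, edgeR adjusted p = 0.000529) and -0.44 in 3D (SE 0.09, edgeR adjusted p = 0.0024), where the call was lost without batch 2 (adjusted p = 0.0557).

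Rictor, the subunit of mTORC2, was at 9.0, 11.3 and 12.8 TPM in D2A1 2D and at 7.93, 7.65 and 8.25 TPM in D2A1 3D. In D2.OR it was at 10.5, 16.1 and 14.2 TPM in 2D and at 13.9, 12.1 and 12.2 TPM in 3D. The lines overlapped in 2D and were apart in 3D. In 3D the log2 fold change was 0.66 (SE 0.14, edgeR adjusted p = 0.00329). In 2D it was 0.43 (SE 0.14, edgeR adjusted p = 0.0279), and this call was lost with the library total in place of TMM (0.26, adjusted p = 0.137), with only the groups compared (0.43, adjusted p = 0.0514), with limma on log2(TPM + 1) (0.27, adjusted p = 0.177) and on log2(TPM + 0.1) (0.29, adjusted p = 0.176), without batch 2 (0.31, adjusted p = 0.243), without batch 3 (0.51, adjusted p = 0.0861) and without any one of D2A1 2D replicates 1 and 2 and D2.OR 2D replicates 2 and 3 (0.28 to 0.45). Within a library, the level of Rictor was 0.297 to 0.420 of that of Rptor in D2A1 and 0.625 to 0.850 of it in D2.OR.

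Mlst8, which both complexes share, was higher in D2.OR, opposite to Mtor. It was at 11.9, 8.76 and 10.2 TPM in D2A1 2D and at 12.6, 11.8 and 13.9 TPM in D2A1 3D, against 15.9, 16.5 and 16.3 TPM in D2.OR 2D and 21.2, 20.1 and 19.98 TPM in D2.OR 3D. The lines did not overlap, with log2 fold changes of 0.80 (SE 0.12, edgeR adjusted p = 0.000672) and 0.65 (SE 0.12, edgeR adjusted p = 0.00176). The ratio of Mtor to Mlst8 therefore covered a wide range, from 6.23 to 11.9 in D2A1 2D and 2.66 to 3.63 in D2A1 3D to 1.15 to 1.95 in D2.OR.

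Deptor, an inhibitor that binds Mtor, followed the batch more than the line. It was at 16.9, 12.3 and 16.1 TPM in D2A1 2D and at 19.0, 4.25 and 3.96 TPM in D2A1 3D, against 25.6, 10.6 and 10.4 TPM in D2.OR 2D and 31.9, 9.60 and 12.6 TPM in D2.OR 3D. Replicate 1 was the highest in every group. Deptor was called higher in D2.OR in 3D (1.12, SE 0.31, edgeR adjusted p = 0.0124) though the groups overlapped, and the call was lost without the replicate block (0.99, adjusted p = 0.213), without batch 2 (1.12, adjusted p = 0.103), without batch 3 (0.90, adjusted p = 0.0907) and without D2A1 3D replicate 2 (1.02, adjusted p = 0.0555) or 3 (0.87, adjusted p = 0.0591). Akt1s1 (PRAS40), the other inhibitory subunit, was at 96.8 to 137 TPM and was not called in any comparison.

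Of the outputs of mTORC1, Eif4e and Rps6kb1 were lower in D2.OR in both cultures and the other 4 were not called, where 49.8% and 53.8% of all genes were. Eif4e, which binds the cap of mRNAs, was at 337, 329 and 266 TPM in D2A1 2D and at 322, 343 and 350 TPM in D2A1 3D. In D2.OR it was at 150, 186 and 200 TPM in 2D and at 181, 180 and 196 TPM in 3D. All D2.OR libraries lay below all D2A1 libraries, with log2 fold changes of -0.67 (SE 0.12, edgeR adjusted p = 0.00181) and -0.79 (SE 0.12, edgeR adjusted p = 0.000632). The call in 2D was lost without batch 2 (adjusted p = 0.0559). The Eif4e count was not whole in any of the 12 libraries. Its inhibitors Eif4ebp1 (219 to 446 TPM) and Eif4ebp2 (44.2 to 64.6 TPM) were not called, and the level of Eif4e over the sum of both was 0.655 to 1.25 in D2A1 and 0.493 to 0.657 in D2.OR.

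Rps6kb1, the S6 kinase 1, was at 33.3, 34.5 and 32.6 TPM in D2A1 2D and at 35.3, 28.4 and 29.3 TPM in D2A1 3D, and at 22.6 to 26.7 TPM in D2.OR. The log2 fold change was -0.44 in 2D (SE 0.09, edgeR adjusted p = 0.0025) and -0.34 in 3D (SE 0.08, edgeR adjusted p = 0.00782). The calls were lost without batch 2 in both cultures and without batch 3 in 3D (highest adjusted p = 0.0568 in 2D and 0.0756 in 3D). It overlaps Rnft1 on the opposite strand, which was at 24.8 to 32.8 TPM and differed between the lines by 0.05 and 0.06. Rps6kb2 (20.8 to 35.8 TPM) and Ulk1, the kinase that starts autophagy (26.6 to 74.2 TPM), were not called.

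**Figure D4:**
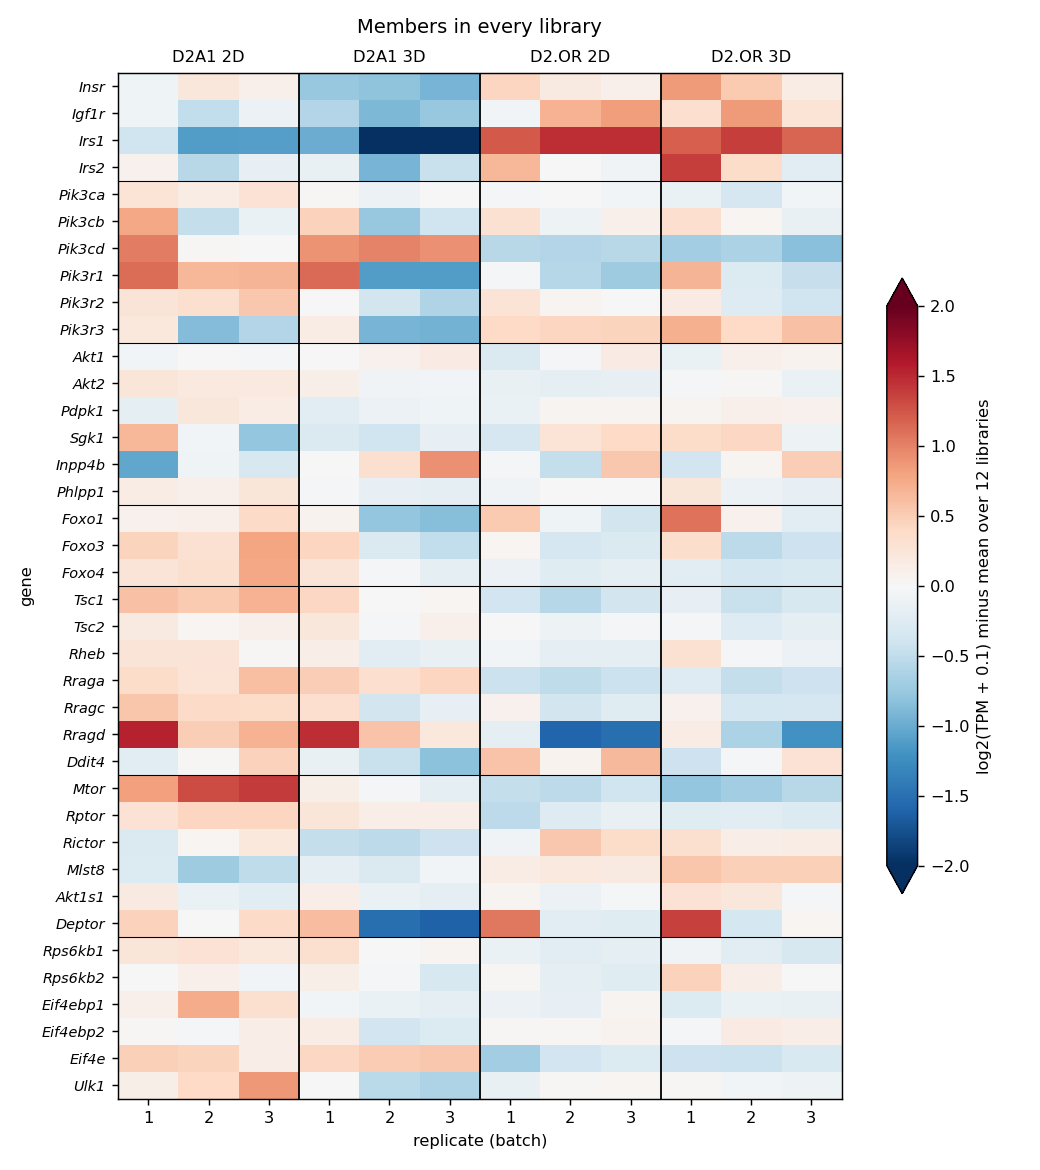
Level of each of the 38 genes in the 12 libraries, as log2(TPM + 0.1) minus the mean of the gene over all libraries (red above, blue below, color scale ending at 2 on either side), with lines between groups and between roles. Irs1 is blue in all D2A1 libraries and red in all D2.OR libraries, Mtor is reddest in D2A1 2D, and in Pik3r1 and Deptor replicate 1 of D2A1 3D differs from replicates 2 and 3.

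Culture in 3D changed few of the 38 genes by a call. In D2A1, Mtor, Insr and Rragc fell and 0 rose, 3 of 38, where 3.48% of all genes were called (2.12% lower). Rragc was at 96.0, 85.2 and 83.9 TPM in 2D and at 82.4, 50.7 and 57.9 TPM in 3D (-0.39, SE 0.09, edgeR adjusted p = 0.0477), a call lost without the replicate block (-0.38, adjusted p = 0.209), in 3 other settings (-0.40 to -0.38, adjusted p = 0.0536 to 0.191) and in 12 of 15 fits with a batch or library left out (all but those without batch 1, D2A1 2D replicate 1 or D2A1 3D replicate 1). At an unadjusted p under 0.05 there were 18 genes, 15 of them lower, beside 31.4% of all genes (16.6% lower). The median log2 fold change of the 38 was -0.19, against 0.0037 for all genes, and 30 of 38 values were below 0. Apart from Mtor, Insr and Rragc, the largest falls that did not pass were those of Deptor (-1.04, adjusted p = 0.0711), Pik3r1 (-1.03, adjusted p = 0.0723), Irs1 (-0.79, adjusted p = 0.0921) and Ulk1 (-0.78, adjusted p = 0.0523) in edgeR. These counts rested on the batches. Without batch 1 there were 20 genes called in edgeR (36.3% of all genes), without D2A1 2D replicate 1 there were 16 (30.3% of all genes) and without D2A1 3D replicate 1 there were 12 (12.8% of all genes). Without batch 2 or batch 3, or without replicate 2 or 3 of either D2A1 group, there were 0, where 0% of all genes were called in 5 of these 6 fits and 0.121% in that without D2A1 2D replicate 3. Without replicate 2 or 3 of either D2.OR group there was 1, beside 0.427% to 0.609% of all genes. DESeq2 called 15 on all libraries, beside 22.1% of all genes with an adjusted p.

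In D2.OR, 0 of the 38 genes were called between 2D and 3D by edgeR, where 1.62% of all genes were. At an unadjusted p under 0.05 there were 4, Tsc2, Pik3r2, Rragd and Mlst8, beside 17.6% of all genes. Tsc2 had the smallest p, at 24.3, 22.4 and 23.4 TPM in 2D and 23.5, 20.1 and 21.1 TPM in 3D (-0.17, SE 0.07, edgeR adjusted p = 0.244), and was the 1 gene that DESeq2 called (-0.17, adjusted p = 0.0404), beside 7.4% of all genes with an adjusted p. Pik3r2 was at 156, 135 and 129 TPM in 2D and at 146, 108 and 98.8 TPM in 3D (-0.32, SE 0.13, edgeR adjusted p = 0.253). Rragd was at 0.35, 0.07 and 0.08 TPM in 2D and at 0.47, 0.23 and 0.12 TPM in 3D (0.74, SE 0.32, edgeR adjusted p = 0.27). The median of the 38 log2 fold changes was 0.02.

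**Figure D5:**
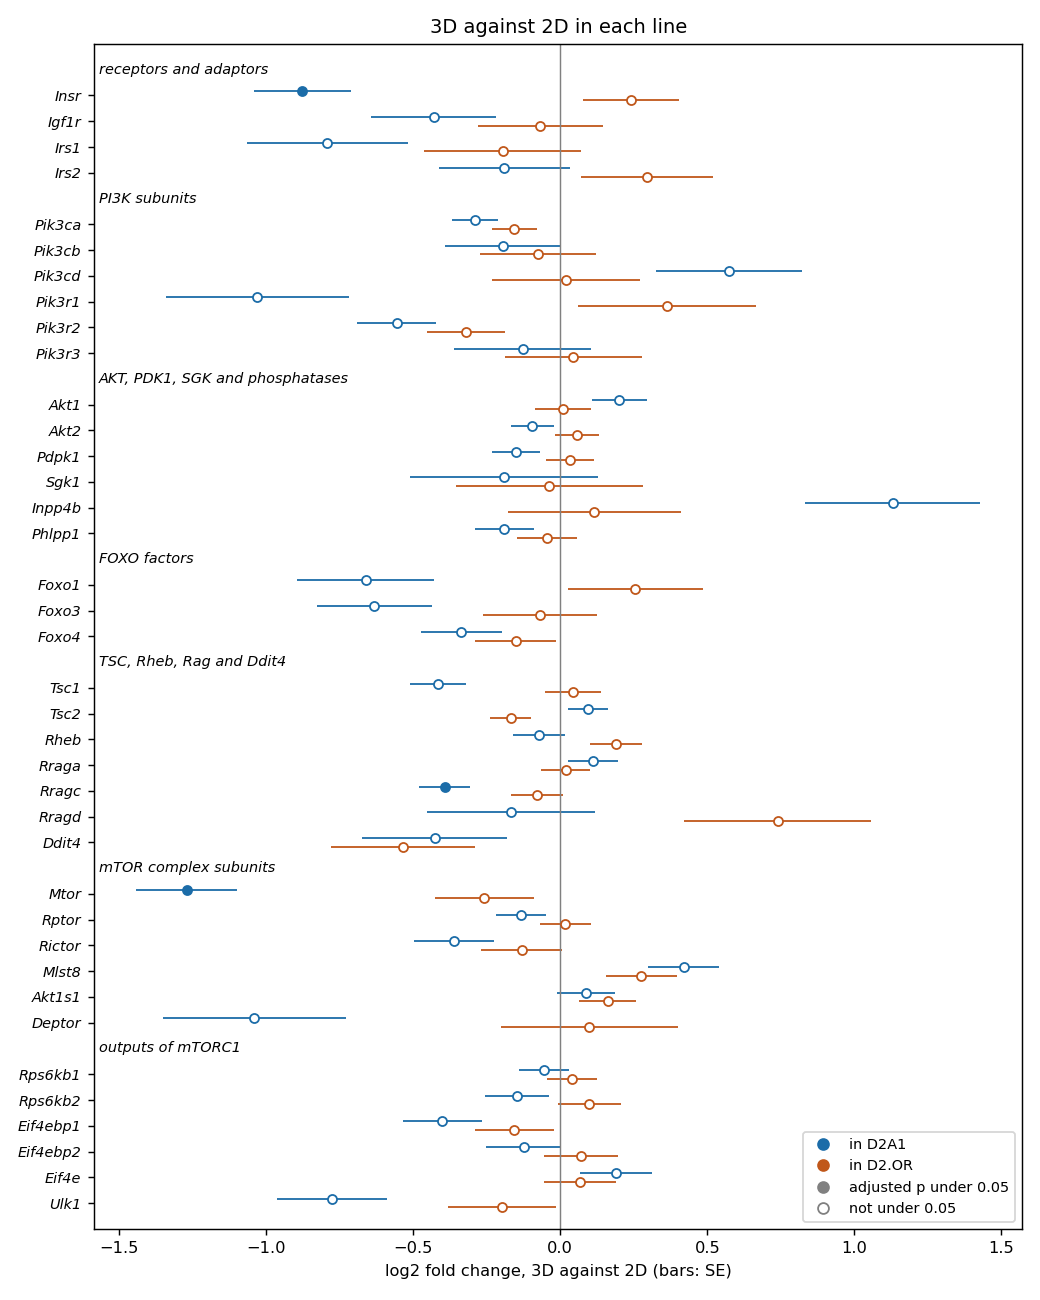
Log2 fold change of 3D against 2D in D2A1 (blue) and in D2.OR (orange) for each of the 38 genes, with bars of 1 SE and filled points for an edgeR adjusted p under 0.05. Mtor (-1.27), Insr (-0.88) and Rragc (-0.39) in D2A1 are the 3 filled points, and the D2.OR values lie between -0.53 and 0.74.

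The interaction of line and culture was called for 0 of the 38 genes by edgeR, beside 0.0238% of all genes. At an unadjusted p under 0.05 there were 9, of which 7 were positive, beside 17.8% of all genes (9.61% positive), and DESeq2's likelihood-ratio test called 5, beside 5.81% of all genes with an adjusted p. The edgeR count was 10 without batch 1 (17.8% of all genes), 8 without D2A1 2D replicate 1 (14.5%) and 2 without D2A1 3D replicate 1 (2.94%). The D2A1 2D group enters both this comparison and the one of the lines in 2D, so the values of Mtor, Insr and Tsc1 in the different comparisons are not independent of each other.

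Other measures moved with the same groups. The summed TPM of 7 markers of cycling cells was 550 to 818 in D2A1 2D and 938 to 1480 in D2A1 3D, and 396 to 794 and 579 to 905 in D2.OR. The adipocyte marker Plin1 was at 6.33, 75.0 and 21.5 TPM in replicates 1, 2 and 3 of D2.OR 3D and at most at 1.36 TPM elsewhere. Fabp4 was at 50.9, 403 and 105 TPM in D2.OR 3D, at 4.2 to 25.2 TPM in D2.OR 2D and at 10.9 to 33.9 TPM in D2A1. Adipoq was at most at 2.03 TPM. The batch itself was called for 5 of the 38 genes in batch 2 against batch 1 (Rragc, Rragd, Deptor, Pik3cb and Pik3r1, all lower, beside 6.78% of all genes, 4.18% lower) and for 4 of these in batch 3 against batch 1 (all but Pik3cb, all lower, beside 8.08%, 5.05% lower). The part of these measures in the differences between cultures and lines was not tested.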

How the data were processed

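Both lines were sequenced as RNA from 2D and from 3D culture, in 3 batches and 12 libraries. Per the submitters' processing notes and the study's methods, the authors used FastQC 0.11.4, Trimmomatic 0.32, STAR 2.5.3 and RSEM 1.3.0 with GRCm38 and the GENCODE M15 annotation. They deposited an expected count for each gene, without normalization and with fractions where reads were shared between genes, and TPM, which corrects for the length of the gene and the depth. FPKM values were not used. Strandedness of the counting is not given in the sources used here, and 25 of the 38 genes overlap another gene. Total counts ranged from 47589611 to 73325069 (median 61747126). The annotation M21 gave transcripts and exons of Mtor, and RefSeq (GRCm38.p6) the promoter windows.

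Expected counts were rounded (10.7% to 11.8% of values in a library were not whole, with a tolerance of 1e-06) and fitted in edgeR 4.0.16 (R 4.3.3) with TMM, filterByExpr, a term for each group and the batch as a block, over all 12 libraries. SE is the absolute log2 fold change divided by the square root of F. Batch values are differences of log2(CPM + 0.5). P-values rest on the spread between replicates of established lines that remains over all 4 groups after shifts common to a batch are taken out. The labels give batch and replicate the same number, and deviations from the group means correlated within batches (0.0758 to 0.511 over 18 pairs, median 0.267; median -0.195 between batches).

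The 38 genes and all lists were chosen with earlier results of these data known. Values in every library of the groups compared are given for Mtor, for the 5 largest rises and 5 largest falls called between the lines in each culture, and for the 3 smallest p in each culture comparison and in the interaction. Irs2, Akt2, Foxo1, Foxo3, Rptor and Rps6kb1 were added after their values were seen. From 6 lists of 115 further pathway genes, examples were taken from the 2 largest called differences of a list in each comparison, at 10 CPM or more in a group compared. Alternatives were no block, DESeq2 1.42.0, DESeq2 size factors, the library total alone, no filter, a minimum of 10 counts in each library, only the groups compared, limma 3.58.1 on log2(TPM + 1) and log2(TPM + 0.1) after a filter of 1 TPM in 3 libraries, and each batch or library left out.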

Additional observations from a re-analysis of the deposited data

How the results depend on the processing

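The difference of Mtor between the lines in 2D stayed called in all 24 alternatives (-1.68 to -1.33 on the log2 scale), and no direction turned in any. The difference of Mtor in 3D was not called with DESeq2 (-0.43), with DESeq2's size factors in edgeR (-0.42), with no filter (-0.45), with at least 10 counts in every library (-0.41) or with only the groups compared (-0.43), and ranged from -0.63 to -0.27 with a batch or library left out, where the call held in 4 of 15 fits (without D2A1 2D replicate 1 or 3, D2A1 3D replicate 3 or D2.OR 2D replicate 1). The fall of Mtor in D2A1 was not called with only the groups compared (-1.26), and ranged from -1.53 to -1.06 with a batch or library left out, where the call was lost without batch 2, batch 3 or a D2A1 library of these batches. The interaction for Mtor was called with DESeq2 (1.03) and ranged from 0.73 to 1.41 with a batch or library left out.

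Without the replicate block, 1 member was called between 2D and 3D in D2A1 in place of 3. It was 15 with DESeq2, 5 with DESeq2's size factors in edgeR, 5 with no filter, 6 with at least 10 counts, 0 with only the groups compared, 6 with limma on log2(TPM + 1), 6 on log2(TPM + 0.1), and 0 to 20 with a batch or library left out. The shares of all genes called were 0.309% without the block and, in the order of these settings, 22.1%, 4.71%, 3.75%, 5.98%, 0.0981%, 9.36%, 9.44% and 0% to 36.3%. DESeq2 called 1 in D2.OR and 5 in the interaction, beside 7.4% and 5.81% of all genes, and the count in the interaction ranged from 0 to 10 with a batch or library left out. Between the lines these left-out counts were 9 to 22 in 2D (9 without batch 2 and 12 without batch 3, where 24.9% and 31.8% of all genes were called) and 11 to 21 in 3D (11 without batch 2, where 31.0% of all genes were called). Without a batch, 2 libraries a group remain.

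For the other 26 pairs of a named gene and a comparison, 557 of 616 values kept their direction and call, 52 were no longer called, 7 became called and 0 turned. In D2A1, the falls of Insr and Rragc were not called in 12 and 16 of 24 alternatives each. Between the lines, the calls of 3 members in 2D (Rragc, Foxo3 and Pik3r1) and of 3 in 3D (Foxo1, Rragd and Deptor) were lost without the block, as given with the genes. TPM keeps no depth, and levels near 1 TPM, as of Rragd, rest on few counts.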

Other observations

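Around the 38 genes, 115 further genes of the pathway were listed in 6 groups, and 103 passed the filter on low counts. Of these, edgeR called 54 between the lines in 2D (21 higher and 33 lower in D2.OR) and 51 in 3D (29 higher and 22 lower), beside 49.8% and 53.8% of all genes. Among ligands, receptors and adaptors, 7 of the 8 tested were called in 2D (4 higher) and 5 in 3D (4 higher). Grb14, an adaptor that inhibits the insulin receptor, was at 3.41 to 7.10 TPM in D2A1 2D and at 16.4 to 29.1 TPM in D2.OR 2D (log2 fold change 2.39, SE 0.29, edgeR adjusted p = 0.000164), and in 3D the difference was 3.07. Igf2r, which clears IGF2 and carries lysosomal enzymes, was higher in D2.OR (1.36, SE 0.12, edgeR adjusted p = 3.02e-05) and fell in 3D in both lines, by 1.11 in D2A1 (SE 0.12, edgeR adjusted p = 0.00955) and by 0.94 in D2.OR (SE 0.12, edgeR adjusted p = 0.0115). Its levels were 21.4 to 26.8 and 9.39 to 12.8 TPM in D2A1, and 55.6 to 59.5 and 29.1 to 34.3 TPM in D2.OR. Both falls lost their call without batch 2, and that in D2A1 also without batch 3, where 0% of all genes were called. Gab2, an adaptor for PI3K, was higher in D2.OR in 3D (1.68) and fell in 3D in D2A1 (-0.89, edgeR adjusted p = 0.0354), a call likewise lost without batch 2 and without batch 3.

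For the lists that follow, the shares of all genes called between the lines were 49.8% in 2D and 53.8% in 3D. Of 20 further genes tested of PI3K, lipid phosphatases, AKT and GSK3, 8 were called in each culture (3 and 5 higher). Pik3ip1, an inhibitor of PI3K, was lower in D2.OR in 2D (-2.03, SE 0.49, edgeR adjusted p = 0.00808). The groups overlapped in TPM, at 22.6 to 39.5 in D2A1 2D and at 4.5 to 23.6 (median 5.62) in D2.OR 2D. Pik3r5, a regulatory subunit of PI3K gamma, was lower in D2.OR in 3D (-1.49) and rose in 3D in D2A1 (1.56, edgeR adjusted p = 0.042). This rise was not called without batch 2 or without batch 3, where 0% of all genes were. Of 32 tested of the mTOR complexes and amino acid sensing, 19 were called in 2D (4 higher) and 14 in 3D (5 higher). Prr5 (Protor-1), a subunit of mTORC2, was at 4.92 to 8.06 TPM in D2A1 and at 11.3 to 43.5 TPM in D2.OR (1.78, SE 0.25, edgeR adjusted p = 0.000393 in 2D, and 2.54 in 3D). Flcn, which acts on Rragc, was lower in D2.OR in 2D (-1.11, edgeR adjusted p = 0.000437), and its partner Fnip1 and Sesn3, of the family of the leucine sensor Sesn2, fell in 3D in D2A1 (-0.87 and -1.07, edgeR adjusted p = 0.0453 and 0.0442). Neither fall was called without batch 2 or without batch 3, where 0% of all genes were. Of 11 tested of AMPK and LKB1, 7 and 5 were called (3 higher in each), with the AMPK subunit Prkag2 lower in D2.OR (-0.95 and -1.17). Of 18 tested of translation, autophagy and TFE outputs, 6 and 11 were called (2 and 5 higher), with the transcription factor Mitf lower (-1.66 and -0.95) and the elongation factor kinase Eef2k higher in D2.OR (0.98 and 1.31).

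Of 14 FOXO target genes tested, 7 were called in 2D (5 higher) and 8 in 3D (7 higher), beside 49.8% (25.4% higher) and 53.8% (27.7% higher) of all genes. Pdk4, a kinase that turns off pyruvate dehydrogenase, did not exceed 0.15 TPM in D2A1 and was at 2.61 to 11.1 TPM in D2.OR 2D and at 14.4 to 46.2 TPM in D2.OR 3D, where it rose (2.38, SE 0.24, edgeR adjusted p = 0.00623). The call of this rise was lost without batch 2, where 0% of all genes were called between 2D and 3D in D2.OR. Fbxo32 (atrogin-1) was higher in D2.OR in 3D (1.88). Gadd45a, a stress-induced gene, was at 39.0 to 240 TPM in D2A1 2D and at 20.9 to 26.8 TPM in D2A1 3D (-2.14, SE 0.43, edgeR adjusted p = 0.042). Sod2 of the same list rose, from 35.2 to 37.7 TPM in D2A1 2D to 40.8 to 94.3 TPM in D2A1 3D (1.07, edgeR adjusted p = 0.0453). Neither change was called without batch 2 or without batch 3, where 0% of all genes were. Between 2D and 3D, 9 of the 103 genes were called in D2A1 (2 higher), beside 3.48% of all genes, and 2 in D2.OR, beside 1.62%. The interaction gave 0 calls by edgeR, where 23 had an unadjusted p under 0.05 (beside 17.8% of all genes), and 8 by DESeq2 (beside 5.81% of all genes with an adjusted p). DESeq2 called 32 in D2A1 between 2D and 3D, beside 22.1%.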
